A study of Mus musculus with 20 samples.

Results

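The 10 genes described here are those of serine, glycine and asparagine synthesis, of amino acid uptake and of the stress response that the transcription factor ATF4 drives: Phgdh, Psat1, Psph, Shmt2, Asns, Slc7a5, Slc7a11, Ddit3, Trib3 and Chac1. They were chosen by name, with earlier results of these data known, as genes whose symbol a probe set of the array carries alone. They account for 89 of the 167016 probe sets that name 1 gene and for 10 of 19607 genes. Their counts beside the shares over all genes are thus descriptions, not tests. The study asked how loss of Gfi1, a zinc finger repressor of transcription needed in T cell development, changes expression in irradiated or tumour-derived thymocytes. RNA of 20 samples from C57BL/6 mice was measured on Affymetrix mouse gene arrays, 1 array a sample. Thymocytes came from wild-type (WT) or Gfi1 KO mice, untreated (2 samples a genotype) or irradiated (3 a genotype), and dose, sampling time and the deleted allele were not stated in the labels. Tumours came from mice with a floxed Gfi1 gene (Gfi1 f/f), without Cre (called WT) or with Mx1Cre (called KO). All tumour mice received the mutagen ENU, and all were given pIpC, an interferon inducer that switches on the Mx1 promoter, once a mediastinal tumour was seen by ultrasound. Some weeks then passed before the tumour was collected. The ENU tumours (3 WT, 3 KO) had no further transgene, and the Notch tumours (2 WT, 2 KO) also carried the transgene the labels name Notch1-CT. Mx1Cre is active in many cell types, so Gfi1 is not deleted in tumour cells alone. WT tumour mice thus differ from WT thymocyte mice in the floxed allele, ENU and pIpC as well as in having a tumour, and these cannot be told apart. The label of all 20 samples gives thymocytes as the source.

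When amino acids run short, or when the endoplasmic reticulum, haem supply or double-stranded RNA signals stress, kinases phosphorylate the translation factor eIF2alpha, general protein synthesis slows and translation of ATF4 rises. ATF4 then binds short elements near its target genes, among them those for amino acid synthesis, uptake and tRNA charging. Because ATF4 is controlled largely at translation, an mRNA array does not measure its activity. Phgdh, Psat1 and Psph carry out the successive steps from a glycolytic intermediate to serine, and Shmt2 turns serine into glycine in mitochondria. Asns makes asparagine from aspartate. Dividing lymphocytes and T cell leukaemias are known for their demand for these amino acids, and asparaginase is a treatment of such leukaemias.

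The 4 stretches of genome shown here are the ones among these genes with the core of an ATF4-type amino acid response element, the 8 letters TGATGNAA, searched on both strands of the 300 bases from 250 before to 50 after each RefSeq start site (mouse build GRCm38.p6). Capitals mark the match, which reads TTNCATCA where it lies on the strand opposite the gene. Each is written 5′ to 3′ along its gene. For Asns, Slc7a11 and Chac1 the 250 bases before the start site are given, and for Trib3, whose match starts 14 bases after the start site, the 30 bases around it.
Asns, chr6:7693210-7693459, minus strand: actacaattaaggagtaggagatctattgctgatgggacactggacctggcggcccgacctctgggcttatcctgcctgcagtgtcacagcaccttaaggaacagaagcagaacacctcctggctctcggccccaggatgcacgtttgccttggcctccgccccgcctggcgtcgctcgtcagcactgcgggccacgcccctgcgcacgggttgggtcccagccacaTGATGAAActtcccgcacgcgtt
Slc7a11, chr3:50443614-50443863, minus strand: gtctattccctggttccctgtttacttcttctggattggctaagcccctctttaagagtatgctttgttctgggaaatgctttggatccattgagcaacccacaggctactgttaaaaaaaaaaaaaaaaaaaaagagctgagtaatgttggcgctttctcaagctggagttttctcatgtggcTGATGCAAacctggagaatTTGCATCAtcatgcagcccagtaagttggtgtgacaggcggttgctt
Chac1, chr2:119350992-119351241, plus strand: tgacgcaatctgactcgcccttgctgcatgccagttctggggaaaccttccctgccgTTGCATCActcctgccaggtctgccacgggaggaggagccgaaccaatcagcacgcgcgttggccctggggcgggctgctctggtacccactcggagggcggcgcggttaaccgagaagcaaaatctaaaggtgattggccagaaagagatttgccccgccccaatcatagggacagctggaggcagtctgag
Trib3, chr2:152344028-152344057, minus strand: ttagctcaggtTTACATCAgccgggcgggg
Counted from the start site, the match began at -23 in Asns, at -193 in Chac1, and at -66 and -47 in Slc7a11, the only one of these genes with 2 matches. Of the 10 genes 9 had a window, Slc7a5 being the exception, and 4 of the 9 held the motif. Of all 27025 genes with a window 4.51% held it. Psat1, Phgdh, Psph, Shmt2 and Ddit3 had no match in these windows. A match is a string of letters only: binding was not measured.

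Values are the deposited log2 signals of probe sets. A gene's level is the median of its centred probe sets plus their mean. Differences are log2 differences between group means (±SE), and a difference of 1 is a 2-fold change only if the deposited log base is 2, which the labels leave unstated. Genes were tested in limma, and a gene was called higher or lower where its adjusted p over all genes tested was below 0.05. Thymocyte groups (12747 genes tested) and tumour groups (13025) were fitted apart, and tumours against thymocytes in a fit of all arrays (13520). All 10 genes were tested in each. Arrays of a group correlated at 0.936 to 0.988, except the pair of KO Notch tumours at 0.87. KO Notch tumour 2 stood apart: its B cell marker mean was 12.62 (7.11 to 9.16 in the other 19 arrays) and its T cell marker mean 9.05 (10.65 to 12.78), with Cd79a at 13.76 and Thy1 at 10.02. The comparison of KO with WT Notch tumours is given with and without it. For the other comparisons whose fit it enters, values without it are given for some genes only or not at all. Gfi1 itself gave a mixed check. Of its 8 probe sets 3 were more than 1 lower in untreated KO than in WT thymocytes and 5 in irradiated KO, with 1 probe set shared, while 3 and 2 were more than 1 higher. The level of Gfi1 over all its probe sets differed by 0.26 ± 0.15 in untreated and by -1.31 ± 0.12 in irradiated KO thymocytes. In Notch tumours 2 probe sets were more than 1 lower in KO than in WT and 0 more than 1 higher. The level over all probe sets differed by -0.12 ± 0.33 there. In the ENU tumours labelled Gfi1 KO no probe set was more than 1 lower. The differences ran from -0.65 to 0.11, so the arrays do not show loss of Gfi1 in the ENU tumours. Whether both KO thymocyte groups carry the same allele was not stated in the labels, and every comparison of irradiated with untreated KO thymocytes rests on that. Nothing says that the samples of a group are separate animals, so the p-values measure the spread between these samples, which may be technical.

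**Figure D1:**
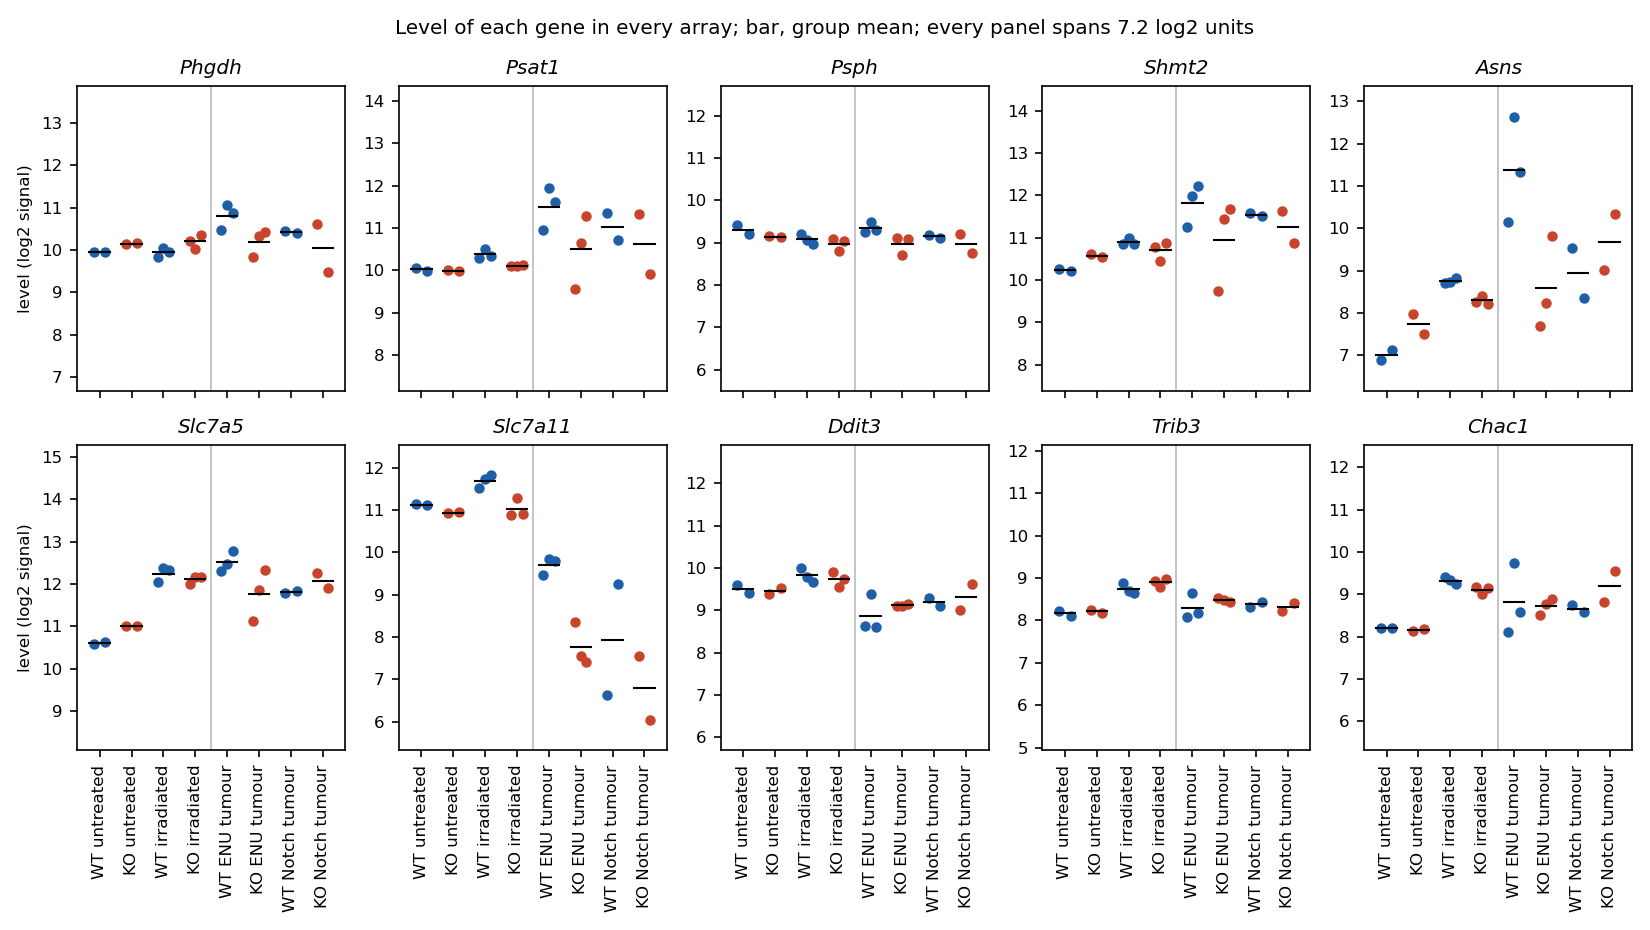
Level of each of the 10 genes (log2 signal, vertical axis, each panel spanning the same height) in every array of the 8 groups, WT in blue and KO in red, with a bar at the group mean. Asns spans 4.36 between its lowest and highest group means and Slc7a11 4.88, while Psph spans 0.39.

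Asns and Slc7a11 varied most over the 8 groups, and in different directions. The mean of Asns was lowest in WT untreated thymocytes (7.01 ± 0.17, SD, n = 2), then came KO untreated (7.74 ± 0.33, n = 2), KO irradiated (8.30 ± 0.10, n = 3), ENU tumours labelled KO (8.58 ± 1.11, n = 3), WT irradiated (8.75 ± 0.07, n = 3), WT Notch (8.95 ± 0.84, n = 2), KO Notch (9.67 ± 0.95, n = 2) and WT ENU tumours (11.37 ± 1.24, n = 3). The arrays of WT untreated, KO untreated and KO irradiated thymocytes did not overlap one another. From KO irradiated upward each group overlapped the next, up to KO Notch 2 at 10.34, which lay above the lowest WT ENU array at 10.14. Asns lay below the 40th percentile of an array's genes in both WT untreated arrays, in KO untreated 2 and in the first ENU tumour labelled KO, so its low end is among the levels the filter removes, and was at the 42.4th in KO untreated 1. It reached the 99.3th percentile in 1 tumour. Slc7a11, the cystine-importing exchanger, ran the other way: it was high in all thymocytes (group means 10.93 to 11.69) and lower in every tumour array (6.04 to 9.84). It fell below the 40th percentile in 5 tumour arrays. Slc7a5, which carries large neutral amino acids into the cell together with Slc3a2, lay at or above the 86th percentile in every array.

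The other genes moved less. The range of group means was 1.59 for Shmt2, 1.52 for Psat1, 1.18 for Chac1, which degrades glutathione, 0.94 for Ddit3, the transcription factor CHOP, 0.85 for Phgdh, 0.74 for Trib3, a pseudokinase induced with CHOP, and 0.39 for Psph. Of these, Psat1, Phgdh, Psph and Shmt2 had their highest mean in WT ENU tumours, as did Asns and Slc7a5. Chac1 and Ddit3 had theirs in WT irradiated thymocytes, and Trib3 in KO irradiated.

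Irradiation raised most of these genes in WT thymocytes. Against the 13% of all genes that rose and the 21.7% that fell (34.6% were called), 7 of the 10 rose and none fell, and the median difference of the 10 was 0.57, beside -0.02 over all genes tested. Asns rose by 1.75 ± 0.13 and Slc7a5 by 1.64 ± 0.11, followed by Chac1 (1.12 ± 0.10), Shmt2 (0.66 ± 0.12), Trib3 (0.58 ± 0.11), Slc7a11 (0.56 ± 0.13) and Psat1 (0.36 ± 0.10). Phgdh (0.00 ± 0.11), Psph (-0.24 ± 0.11) and Ddit3 (0.32 ± 0.12, adjusted p = 0.0569) were not called. With the mean of the probe sets in place of their median Psph was called lower in WT (-0.32, adjusted p = 0.0383) and in KO (-0.37, adjusted p = 0.0186). The arrays of the groups did not overlap for 9 of the 10, where 56.9% of all genes did not.

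Among the synthesis enzymes, Asns read 6.89 and 7.12 in the untreated WT arrays and 8.70, 8.73 and 8.83 in the irradiated ones (adjusted p = 5.05e-08). Every irradiated array was more than 1 unit above both untreated arrays. Shmt2 read 10.27 and 10.20 untreated against 10.84, 10.99 and 10.85 irradiated (adjusted p = 0.000463). Psat1 went from 10.05 and 9.99 to 10.28, 10.51 and 10.34 (adjusted p = 0.00981), a small shift whose call was lost without either untreated array (0.39, adjusted p = 0.0572 without the first, and 0.33, adjusted p = 0.0831 without the second). The enzyme before it in the pathway, Phgdh, read 9.96 and 9.94 against 9.84, 10.05 and 9.96, with the groups overlapping.

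Both transporters rose. Slc7a5 read 10.59 and 10.63 in untreated and 12.04, 12.37 and 12.33 in irradiated WT thymocytes (adjusted p = 2.09e-08). Slc7a11 read 11.13 and 11.12 against 11.52, 11.72 and 11.82 (adjusted p = 0.00271). Neither gene's groups overlapped. Of the stress genes, Chac1 read 8.20 and 8.21 against 9.40, 9.33 and 9.24 (adjusted p = 3.37e-07), and Trib3 8.23 and 8.10 against 8.89, 8.69 and 8.66 (adjusted p = 0.000556). Ddit3 read 9.60 and 9.41 against 10, 9.79 and 9.68. All 3 irradiated Ddit3 values were above both untreated ones, yet Ddit3 was called only when WT irradiated 3 was left out (0.39, adjusted p = 0.0377) or probe sets were averaged in place of the median (0.30, adjusted p = 0.0483). The Atf4 transcript rose by 0.44 ± 0.12 (adjusted p = 0.00842), a call lost without WT untreated 2 (0.40, adjusted p = 0.0744).

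In KO thymocytes irradiation raised 4 of the 10 and lowered none, where 15.1% of all genes rose, 23.7% fell and 38.8% were called. The 4 were Slc7a5 (1.09 ± 0.11, adjusted p = 1.51e-06), Chac1 (0.96 ± 0.10, adjusted p = 1.49e-06), Trib3 (0.70 ± 0.11, adjusted p = 8.95e-05) and Asns (0.56 ± 0.13, adjusted p = 0.00264). The median over the 10 was 0.20, beside -0.02 over all genes, and the groups did not overlap for 7 of them, as for 66.2% of all genes. Slc7a5 read 11.02 in both untreated KO arrays and 12.01, 12.16 and 12.16 after irradiation. Chac1 went from 8.12 and 8.17 to 9.17, 9.01 and 9.14, and Trib3 from 8.25 and 8.18 to 8.94, 8.79 and 8.99. These 3 genes thus stood well clear of their untreated arrays in both genotypes. Asns read 7.97 and 7.50 against 8.27, 8.41 and 8.22, and its call was lost without KO untreated 2 (0.33, adjusted p = 0.114). Shmt2 (0.13 ± 0.12), Psat1 (0.12 ± 0.10) and Slc7a11 (0.09 ± 0.13), which had risen in WT, were not called, nor was Ddit3 (0.28 ± 0.12), which passed without KO irradiated 2 (0.37, adjusted p = 0.0248) and with the mean of the probe sets (0.31, adjusted p = 0.0412). Atf4 rose by 0.71 ± 0.12 (adjusted p = 0.0002).

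**Figure D2:**
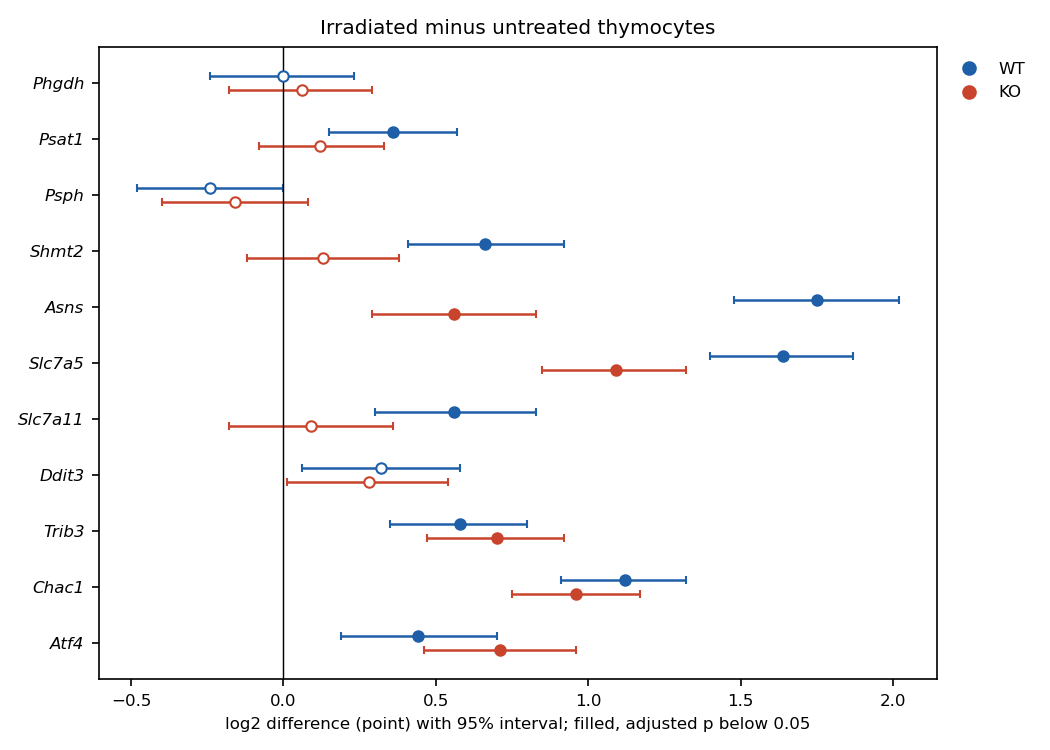
Difference between irradiated and untreated thymocytes (log2, horizontal axis) for the 10 genes and Atf4, WT in blue and KO in red. Points are differences of group means, bars their 95% intervals, and filled points have an adjusted p below 0.05; the intervals lie apart for Asns (1.48 to 2.02 in WT, 0.29 to 0.83 in KO), Slc7a5 and Shmt2, of which only the difference for Asns was called, and those of Chac1, Trib3 and Atf4 overlap.

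The test of the difference between these responses called 1 of the 10 genes, Asns, where 1.88% of all genes were called, 0.784% lower and 1.1% higher. Asns responded by 1.19 ± 0.18 less in KO (-1.19, 95% interval -1.57 to -0.80, adjusted p = 0.00211), and all 12 of its probe sets had a smaller response in KO, the differences running from -2.96 to -0.24. Before irradiation Asns was 0.73 ± 0.14 higher in KO, and after it 0.45 ± 0.11 lower. Asns passed the filter of this fit only with the irradiated arrays, where it was higher. For the other genes the difference was not called: Slc7a5 -0.55 ± 0.16 (adjusted p = 0.0959), Shmt2 -0.54 ± 0.17 (0.136 adjusted), Slc7a11 -0.47 ± 0.18 (0.241 adjusted), Psat1 -0.24 ± 0.14 (0.527 adjusted). The stress genes lay nearer 0, with Chac1 at -0.15 (95% interval -0.45 to 0.14), Trib3 at 0.12 (-0.20 to 0.44) and Ddit3 at -0.04 (-0.41 to 0.33). Slc7a5 passed without WT irradiated 1 (-0.65, adjusted p = 0.0225), and Slc7a11 without KO irradiated 2 (-0.61, adjusted p = 0.0407). In a fit that shared its spread with the tumours no difference of the responses was called among the 10 genes. In that fit the irradiation calls left were Slc7a5 and Trib3 in each genotype. The part of the differing sets of low Gfi1 probe sets in the 2 KO groups was not tested.

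**Figure D3:**
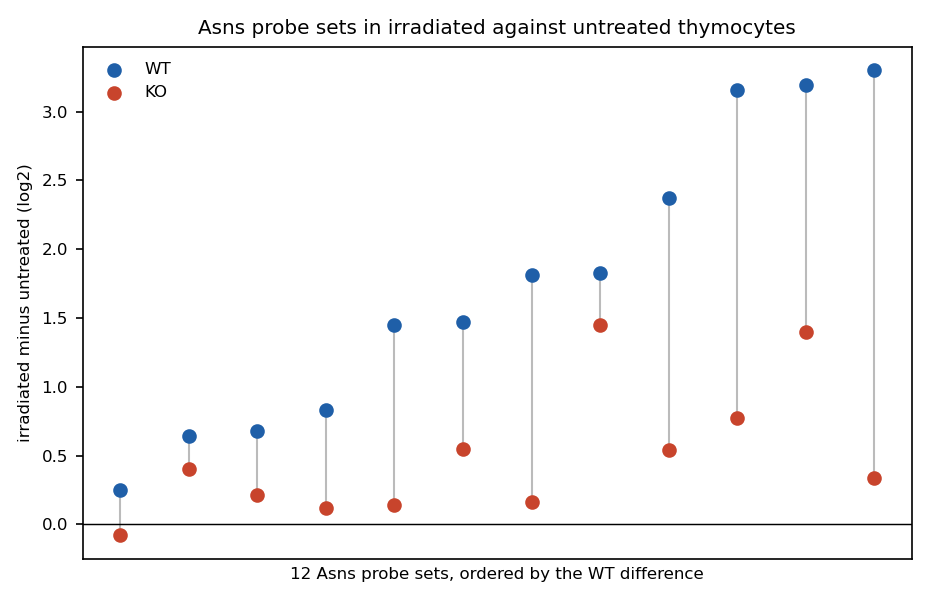
Irradiated minus untreated difference (log2, vertical axis) of each of the 12 Asns probe sets in WT (blue) and KO (red) thymocytes, a grey line joining the values of a probe set. The WT values run from 0.25 to 3.30 and the KO values from -0.08 to 1.45, and the WT point is the upper one for all 12.

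KO and WT thymocytes were then compared within each treatment, and these comparisons share their arrays with the ones above. In untreated thymocytes 2 of the 10 were higher in KO and none lower, where 6.79% of all genes were higher, 5.49% lower and 12.3% called. Asns was higher by 0.73 ± 0.14 (adjusted p = 0.00178) and Slc7a5 by 0.41 ± 0.12 (adjusted p = 0.0335). The Asns call was lost without KO untreated 1 (0.50, adjusted p = 0.074), and that of Slc7a5 without any 1 of the 4 arrays (0.39 to 0.44, adjusted p = 0.129 to 0.197). The next in size, Shmt2 (0.34 ± 0.13, adjusted p = 0.107), Phgdh (0.19 ± 0.12), Slc7a11 (-0.19 ± 0.14) and Psph (-0.18 ± 0.12), were not called. The arrays did not overlap for 7 of the 10, as for 61.9% of all genes.

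In irradiated thymocytes 3 of the 10 were lower in KO and none higher, where 6.81% of all genes were lower, 8.12% higher and 14.9% called. Slc7a11 read 10.87, 11.29 and 10.90 in KO against 11.52, 11.72 and 11.82 in WT, a difference of -0.67 ± 0.11 (adjusted p = 0.000431). All KO values lay below all WT values. Asns was lower by 0.45 ± 0.11 (-0.45, adjusted p = 0.0112), a call lost without KO irradiated 3 (-0.42, adjusted p = 0.0522). Psat1 was at the threshold (-0.27 ± 0.09, adjusted p = 0.0491), and its call was lost without any array but WT irradiated 1 (-0.29 to -0.20, adjusted p = 0.0827 to 0.131). Phgdh ran the other way and passed without KO irradiated 2 (0.34, adjusted p = 0.0231, against 0.25 ± 0.10 with all arrays). Arrays did not overlap for 4 of the 10, where 25.2% of all genes did not. In the fit of all 20 arrays none of these KO and WT differences was called.

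Genes of other cell types moved with these comparisons. In bulk RNA fewer cells of a type and less RNA per cell cannot be told apart. After irradiation of WT thymocytes the median marker difference was -0.88 for macrophages and dendritic cells (10 of 12 lower), -0.93 for B cells (6 of 8 lower) and -1.23 for granulocytes (9 of 11 lower), and 0.28 for proliferation genes (9 of 18 higher, 4 lower). In KO thymocytes macrophage and dendritic cell markers likewise fell (median -0.71, 10 of 12 lower), as did B cell markers (-0.88, 7 of 8 lower), gamma delta T cell markers (-0.70, 4 of 5 lower) and erythroid and megakaryocyte markers (-0.90, 4 of 7 lower). Granulocyte markers did not follow the WT pattern there (median 0.24, 3 of 11 higher, 1 lower). In the test of the difference between the responses, which called Asns, 9 of 11 granulocyte markers were higher and 1 lower (median 1.51). In the same test 4 of 12 macrophage markers were higher. Lower in it were 3 of 7 erythroid and megakaryocyte, 1 of 7 NK and cytotoxic cell and 1 of 5 gamma delta T cell markers. Untreated KO differed from untreated WT thymocytes by -2.57 in granulocyte markers (9 of 11 lower) and 0.54 in macrophage markers (8 of 12 higher). Gamma delta T cell markers differed by 1.26 (4 of 5 higher) and erythroid and megakaryocyte markers by 1.04 (4 of 7 higher). NK and cytotoxic cell markers differed by 0.69 (5 of 7 higher) and B cell markers by 0.46 (5 of 8 higher). Irradiated KO differed from irradiated WT by 0.88 in macrophage markers (10 of 12 higher), 0.66 in NK and cytotoxic cell markers (7 of 7 higher), 0.62 in B cell markers (5 of 8 higher, 1 lower), -0.70 in granulocyte markers (7 of 11 lower) and -0.29 in proliferation genes (7 of 18 lower). The mean level of the T cell markers stayed within 12.27 to 12.78 in all 10 thymocyte arrays, though 6 of 13 fell after irradiation in WT and 8 of 13 in KO. The part of these cells in the results for the 10 genes was not tested.

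The other genes of the pathway were read from 7 lists, also chosen with earlier results of these data known. In irradiated WT thymocytes, the list of integrated stress response factors had 5 of 10 higher and none lower, led by Sesn2 (2.03 ± 0.13), an inhibitor of growth signalling also induced by p53, and Jdp2 (1.86 ± 0.13), a repressor of the AP-1 family. Of the other synthesis enzymes 8 of 15 rose and 1 fell. These included Mthfd2 (1.05 ± 0.10), which works beside Shmt2 in mitochondrial folate metabolism, Aldh18a1 (0.76 ± 0.11) of proline synthesis, Bcat1 (0.86 ± 0.13), which transfers the amino group of branched-chain amino acids, and Glul (0.66 ± 0.10), glutamine synthetase. Of the other transporters 4 of 11 rose, Slc7a1 (1.16 ± 0.10), which carries arginine and lysine, and Slc6a9 (0.72 ± 0.11), which carries glycine, foremost. Of the tRNA synthetases 6 of 20 rose and 1 fell, with Aars at 0.57 ± 0.11, Iars at 0.54 ± 0.11 and Cars at 0.46 ± 0.10. Of the endoplasmic reticulum and unfolded protein response genes 2 of 19 rose and 6 fell, shares near those over all genes (13% higher, 21.7% lower), Dnajc3 falling by 0.61 and Pdia4 by 0.55. Of the eIF2alpha kinases and subunits 2 of 8 rose and 2 fell, the kinase Eif2ak3 (PERK) rising by 1.70 ± 0.11 and Eif2ak2 (PKR) falling by 0.63. Of the NRF2 antioxidant genes 1 of 10 rose and 2 fell. All genes named in this paragraph were called with any 1 of the arrays compared left out. With 1 array left out the counts ran from 3 to 5 higher for the stress factors, from 6 to 8 for the enzymes, from 2 to 4 for the transporters, from 3 to 6 for the synthetases and from 2 to 10 lower for the endoplasmic reticulum genes.

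In irradiated KO thymocytes the same lists gave 5 of 10 stress factors higher and 1 lower, 7 of 15 enzymes higher and 2 lower, 5 of 11 transporters higher and 1 lower, and 4 of 20 synthetases higher and 3 lower. Over all genes 15.1% were higher and 23.7% lower, so the synthetases lay near the background. Sesn2 rose by 1.61 ± 0.13, Jdp2 by 1.10 ± 0.13, Mthfd2 by 0.78 ± 0.10 and Slc7a1 by 0.61 ± 0.10. Of the eIF2alpha kinases and subunits 1 of 8 rose and 2 fell. Eif2ak3 rose by 1.60 ± 0.11, while Eif2ak2 (-1.01 ± 0.13) and the subunit Eif2s1 (-0.45 ± 0.10) fell. Of the NRF2 antioxidant genes 0 of 10 rose and 2 fell. Of the endoplasmic reticulum genes 13 of 19 were lower and 1 higher, with Dnajc3 falling by 0.83, Pdia4 by 0.81 and Hspa5, the chaperone BiP, by 0.67. With 1 array left out the counts ran from 5 to 6 higher for the stress factors, 4 to 7 for the enzymes, 2 to 5 for the transporters and 2 to 4 for the synthetases, and from 8 to 13 lower for the endoplasmic reticulum genes. The difference of the responses was called for 2 genes of the 7 lists, Jdp2 (-0.76, adjusted p = 0.0454) and the stress sensor Atf6 (-0.57, adjusted p = 0.0492). Both calls were lost when 1 of several arrays was left out, 7 of the 10 for Jdp2 and 8 of the 10 for Atf6.

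Between genotypes, the list with most calls was that of the endoplasmic reticulum genes. Over all genes 6.79% were higher and 5.49% lower in untreated KO, and 8.12% higher and 6.81% lower in irradiated KO. In untreated thymocytes 6 of 19 were higher in KO and none lower (3 to 4 with 1 array left out), Atf6 by 2.35 ± 0.11, Pdia4 by 0.68 ± 0.13 and the sensor Ern1 (IRE1) by 0.66 ± 0.12. In irradiated thymocytes 4 of 19 were higher and 1 lower, Atf6 again by 1.78 ± 0.09 and Ern1 by 0.67 ± 0.10. The transporter Slc7a1 was higher in untreated KO (0.57 ± 0.11, adjusted p = 0.00261), and in irradiated KO the aminotransferase Got1 was (0.62 ± 0.10, adjusted p = 0.000244).

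**Figure D4:**
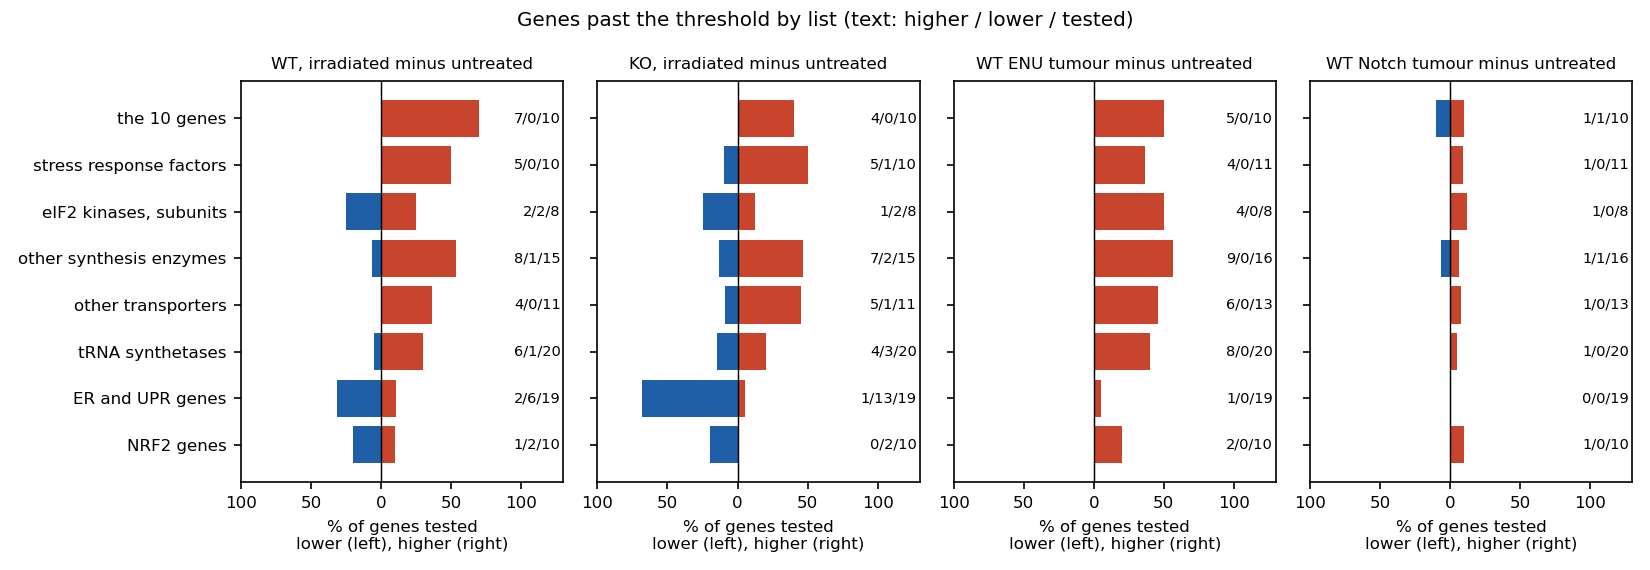
Share of the genes tested in each list (horizontal axis, percent) called higher (red, to the right) or lower (blue, to the left) in 4 comparisons, with the counts higher, lower and tested printed at the right of each bar. Of the 10 genes 7 rose after irradiation in WT and 4 in KO, and 5 were higher in WT ENU tumours and 1 in WT Notch tumours, while endoplasmic reticulum (ER) and unfolded protein response (UPR) genes were called lower in 6 and 13 of 19 cases after irradiation.

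WT tumours were set against WT untreated thymocytes. In WT ENU tumours 5 of the 10 genes were higher and none lower, where 9.87% of all genes were higher, 10.2% lower and 20.1% called. Asns was higher by 4.36 ± 0.64 (adjusted p = 0.000479), Slc7a5 by 1.91 ± 0.25 (adjusted p = 0.000184), Shmt2 by 1.59 ± 0.43, Psat1 by 1.48 ± 0.43 and Phgdh by 0.85 ± 0.26. The median over the 10 was 0.73, beside 0.01 over all genes, and the arrays did not overlap for 7 of the 10, as for 54.8% of all genes. Asns read 10.14, 12.63 and 11.34 in the tumours against 6.89 and 7.12 in thymocytes. The 3 tumours differed widely among themselves, and all lay far above both thymocyte arrays. Slc7a5 read 12.32, 12.47 and 12.77 against 10.59 and 10.63. These 2 calls held with any 1 array left out.

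The serine pathway enzymes were higher by smaller margins. Shmt2 read 11.25, 11.98 and 12.23 in the WT ENU tumours (adjusted p = 0.0176), Psat1 10.94, 11.95 and 11.61 (adjusted p = 0.0264) and Phgdh 10.47, 11.06 and 10.87 (adjusted p = 0.0331). All 3 were above both thymocyte arrays in every tumour, while Psph (0.04 ± 0.16) overlapped. The Shmt2 call was lost without WT ENU 3 or either thymocyte array (1.38 to 1.62, adjusted p = 0.0636 to 0.111), and those of Psat1 (1.26 to 1.51, adjusted p = 0.0685 to 0.142) and Phgdh (0.72 to 0.86, adjusted p = 0.0826 to 0.16) without any array of these groups but WT ENU 1. Of the stress genes, Chac1 read 8.11, 9.73 and 8.59, overlapping the thymocytes (0.60 ± 0.32), and passed without WT ENU 1 (0.95, adjusted p = 0.0335). Ddit3 was lower, not higher, at 8.64, 9.39 and 8.60 (-0.63 ± 0.22, adjusted p = 0.0587), a difference called without KO Notch 2, which enters this fit through the shared spread (-0.63, adjusted p = 0.0277), and without WT ENU 2 (-0.88, adjusted p = 0.00604). Trib3 differed by 0.14 ± 0.15. The 3 ENU tumours of Slc7a11, at 9.47, 9.84 and 9.79, lay below the thymocytes at 11.13 and 11.12 (-1.42 ± 0.55, adjusted p = 0.0852), called without KO Notch 2 (-1.42, adjusted p = 0.0463).

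In WT Notch tumours 1 of the 10 was higher and 1 lower, where 2.14% of all genes were higher, 5.54% lower and 7.68% called. Slc7a5, at 11.80 and 11.84, was higher by 1.21 ± 0.27 (adjusted p = 0.0157), and its call was lost without any 1 of the 4 arrays (1.18 to 1.23, adjusted p = 0.0532 to 0.135). Slc7a11, at 6.62 and 9.26, was lower by 3.18 ± 0.61 (-3.18, adjusted p = 0.00744). The 2 tumours lay far apart, and without the first of them the difference was -1.86 (adjusted p = 0.074). It was not called either without 1 of the thymocyte arrays (-3.19 to -3.18, adjusted p = 0.06 to 0.084). Asns, at 9.54 and 8.35, lay above both thymocyte arrays without being called (1.94 ± 0.70, adjusted p = 0.108), as did Shmt2 (1.31 ± 0.47, adjusted p = 0.102) and Psat1 (1.01 ± 0.48, adjusted p = 0.215). For all 10 genes the arrays did not overlap, where 67.7% of all genes did not.

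**Figure D5:**
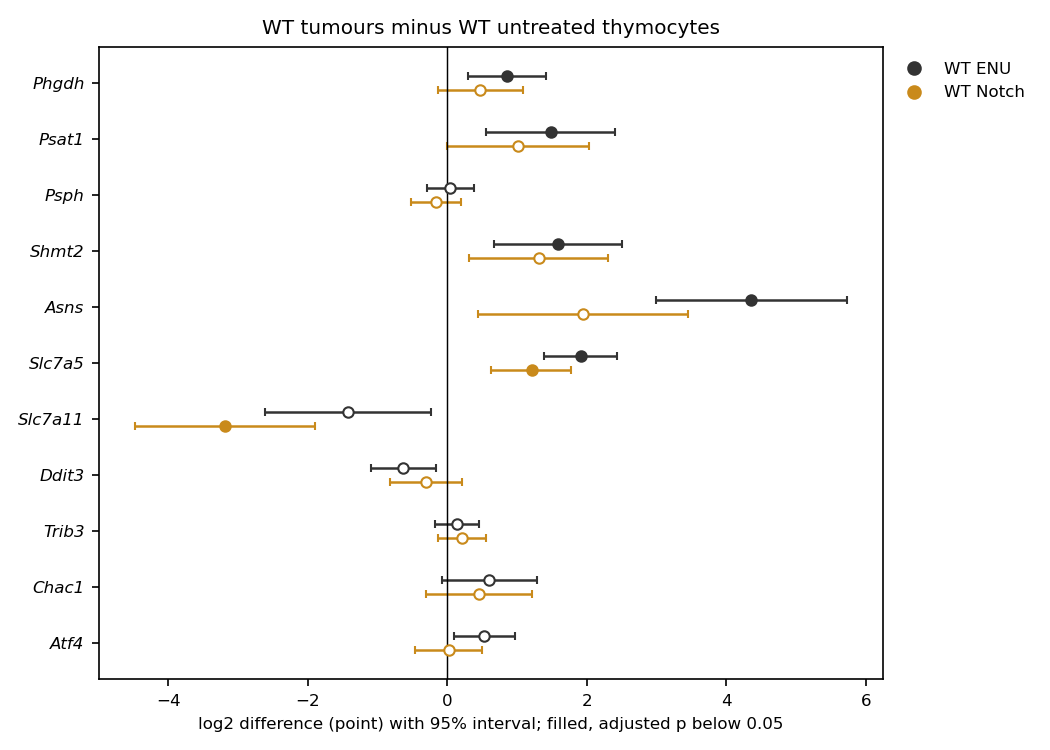
Difference between WT tumours and WT untreated thymocytes (log2, horizontal axis) for the 10 genes and Atf4, ENU tumours in black and Notch tumours in ochre. Points are differences of group means, bars 95% intervals, and filled points have an adjusted p below 0.05; Asns lies at 4.36 (2.99 to 5.73) in ENU and 1.94 (0.44 to 3.45) in Notch tumours, and Slc7a11 below 0 in both.

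Of the 97 entries of the 7 pathway lists 34 were higher in WT ENU tumours than in thymocytes and none lower, where 9.87% of all genes were higher. Of the other synthesis enzymes 9 of 16 were higher, of the transporters 6 of 13, of the synthetases 8 of 20, of the stress factors 4 of 11, of the eIF2 kinases and subunits 4 of 8, of the endoplasmic reticulum genes 1 of 19 and of the NRF2 genes 2 of 10. With 1 array left out these counts ran from 2 to 8 for the enzymes, 1 to 7 for the transporters, 2 to 12 for the synthetases, 2 to 4 for the stress factors and 1 to 4 for the eIF2 genes. Examples that held with any 1 array left out were Got2 (1.05 ± 0.13), which makes aspartate, and Mthfd1l (1.24 ± 0.25) of mitochondrial folate metabolism. Vars (1.63 ± 0.17), Aars (1.14 ± 0.23), Slc7a1 (1.54 ± 0.30), Jdp2 (2.07 ± 0.24), Sesn2 (1.38 ± 0.21) and Eif2s3x (1.05 ± 0.19) held too. Bcat1 was higher by 2.92 (adjusted p = 0.00732), a call lost without WT untreated 1 (2.75, adjusted p = 0.0806). Proliferation genes were higher as well, with 7 of 18 called and a median of 0.95. T cell markers had a median of -0.93 with 1 of 13 lower, and granulocyte markers one of -1.90 with 7 of 12 lower. Their part in these results was not tested. In WT Notch tumours 6 of the 97 entries were higher and 1 lower, where 2.14% of all genes were higher and 5.54% lower. Each of the 7 lists had at most 1 gene higher there. All of these calls were lost without WT Notch 1, and likewise without either thymocyte array.

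Among tumours none of the 10 genes was called in any comparison. Between ENU tumours labelled Gfi1 KO and WT, where 0% of all 13025 genes were called, 0 of the 10 passed in limma and 4 had an unadjusted p below 0.05. Asns read 7.69, 8.23 and 9.82 in those labelled KO against 10.14, 12.63 and 11.34 in WT, a difference of -2.79 ± 0.76 (95% interval -4.51 to -1.06, adjusted p = 0.345). The highest array labelled KO lay just below the lowest WT one. All 12 Asns probe sets were lower, the differences running from -3.37 to -1.16. Slc7a11 read 8.36, 7.56 and 7.40 against 9.47, 9.84 and 9.79 (-1.93 ± 0.65, 95% interval -3.41 to -0.44, adjusted p = 0.351). Its groups did not overlap either, as those of 4 of the 10 did not, beside 29.3% of all genes. In the fit of all 20 arrays, whose spread is that of thymocytes and tumours together, both were called lower (Asns adjusted p = 0.0183, Slc7a11 adjusted p = 0.0415). Over all genes that fit called 679 in this comparison, where the tumour fit called 0.

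The median of the 10 in this comparison was -0.68, beside -0.07 over all genes. Proliferation genes had a median of -0.70, with 0 of 18 above 0 and 13 of 18 not overlapping, B cell markers one of 1.22 (8 of 8 above 0) and NK and cytotoxic cell markers one of 1.24 (6 of 6 above 0). T cell markers had a median of -0.42 (1 of 13 above 0) and macrophage and dendritic cell markers one of 0.51 (13 of 14 above 0). Erythroid and megakaryocyte markers had one of 0.44 (5 of 7 above 0) and gamma delta T cell markers one of 0.89 (4 of 4 above 0). None of these was called in limma. In the order given, 4, 0, 3, 1, 1, 4 and 0 had an unadjusted p below 0.05. Their part in the values of the 10 genes was not tested. Psat1 (-1.01 ± 0.52), Shmt2 (-0.86 ± 0.50), Slc7a5 (-0.75 ± 0.28), Phgdh (-0.61 ± 0.30) and Psph (-0.39 ± 0.17) were lower without a call, and Chac1 (-0.08 ± 0.38), Trib3 (0.18 ± 0.17) and Ddit3 (0.24 ± 0.24) lay near 0. The first array labelled KO had the lowest Asns (7.69), Psat1 (9.55), Shmt2 (9.73) and Slc7a5 (11.13) of the 6. It also had the highest macrophage marker mean of all arrays (11.25, with 9.57 and 9.60 in the other 2 labelled KO) and a lower mean of proliferation genes (10.69, with 11.47 in each of the other 2). Without it Asns differed by -2.34, Psat1 by -0.54, Shmt2 by -0.26 and Slc7a5 by -0.43, and none of these was called. Without KO Notch 2, which shares the fit, Asns kept its -2.79 with an adjusted p of 0.132.

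Between KO and WT Notch tumours 0 of the 10 were called in limma, none had an unadjusted p below 0.05, and 0.0154% of all genes were called. Asns read 9.01 and 10.34 in KO and 9.54 and 8.35 in WT (0.72 ± 0.93), so that the groups overlapped. Slc7a11 read 7.56 and 6.04 in KO and 6.62 and 9.26 in WT (-1.14 ± 0.80), again overlapping. Arrays did not overlap for 2 of the 10, Slc7a5 and Chac1, beside 29.1% of all genes. Without KO Notch 2, the array with the B cell markers, Asns differed by 0.06, Slc7a11 by -0.38, Psat1 by 0.29 (with it -0.42), Phgdh by 0.20 (with it -0.37), Shmt2 by 0.08 (with it -0.29) and Psph by 0.05 (with it -0.17), the last 4 turning from lower to higher without a call. Ddit3 turned from 0.11 to -0.20, Chac1 went from 0.53 to 0.16, Slc7a5 from 0.26 to 0.43 and Trib3 from -0.06 to -0.15, again without a call. The KO difference in Notch minus that in ENU tumours was 3.51 ± 1.2 for Asns (95% interval 0.78 to 6.24, adjusted p = 0.68), with no gene called and 1 of the 10 at an unadjusted p below 0.05. Without KO Notch 2 it was 2.84 (adjusted p = 0.356).

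WT Notch and WT ENU tumours were compared last. None of the 10 was called in limma, 2 had an unadjusted p below 0.05, and 0.023% of all genes were called, 0.0154% higher and 0.00768% lower. Asns was lower in Notch tumours by 2.42 ± 0.85 (-2.42, 95% interval -4.35 to -0.49, adjusted p = 0.567) and Slc7a11 by 1.76 ± 0.73 (-1.76, 95% interval -3.42 to -0.10, adjusted p = 0.642). Slc7a5 read 11.80 and 11.84 against 12.32, 12.47 and 12.77, a difference of -0.70 ± 0.32 (adjusted p = 0.674). The arrays did not overlap for 5 of the 10, beside 34.8% of all genes. In these 4 comparisons among tumours 0 of the 97 entries of the 7 pathway lists were called in limma, and 11 to 14 had an unadjusted p below 0.05. Of the 12 such entries between KO and WT Notch tumours 10 were endoplasmic reticulum genes. That list had a median of 0.97, beside -0.05 over all genes, with 18 of 19 above 0 and 14 of 19 not overlapping. These values include KO Notch 2, the array with the B cell markers.

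For the 6 genes whose group means spanned more than 1, the genes with the most similar profile over the 8 group means were found by the root mean square difference of the centred means. Nearest to Asns were Bcat1 (0.51), Tmem45a (0.55) and Antxr1 (0.56), of which Bcat1 belongs to the list of other enzymes. Nearest to Slc7a5 were 2 genes of the pathway lists, the transporter Slc7a1 (0.22) and the folate enzyme Mthfd2 (0.25), then Lmo4 (0.26). Nearest to Slc7a11 was Rag1 (0.31), which cuts antigen receptor genes, then Gm6273 (0.59) and Rag2 (0.62). Psat1 lay closest to Tspan15 (0.09), Naf1 and Cdk5rap2 (0.11 each), and Shmt2 to Ipo5 (0.11), Utp20 and Naf1 (0.12 each). Chac1 lay closest to Srprb (0.15), Galnt5 (0.16) and Dyrk3 (0.17). Genes with a narrow range, as those near Psat1, reach a small difference more easily than those near Asns.

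The transcript of Myc, a transcription factor known to raise amino acid uptake and serine synthesis genes, fell after irradiation. It fell by 1.76 ± 0.11 in WT (-1.76, adjusted p = 5.47e-09) and by 1.79 ± 0.11 in KO thymocytes (-1.79, adjusted p = 4.43e-09). In WT ENU tumours it read 12.57, 12.51 and 12.39 against 11.62 and 11.46 in untreated WT thymocytes (0.95 ± 0.38, adjusted p = 0.0955). WT Notch tumours differed from those thymocytes by 1.12 ± 0.42 (limma, adjusted p = 0.118). Between KO and WT thymocytes Myc differed by 0.26 ± 0.12 untreated (adjusted p = 0.189) and 0.23 ± 0.10 irradiated (adjusted p = 0.138). The part of Myc in the results for the 10 genes was not tested.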

How the data were processed

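The authors deposited 1 value per probe set and array for 182058 probe sets of 20 arrays, here read as log2 signal. How they were normalized and summarized, and the log base, is not given in the sources used. No detection calls were used. Per the labels' protocols RNA was amplified with NuGEN Ovation Pico. Array medians ran from 9.08 to 9.27, and the number of arrays limits the precision. Probe sets naming 1 gene gave 19607 genes (3388 named several and 11654 none). Genes above the 40th percentile in at least 2 arrays of a fit were tested with limma 3.58.1 (R 4.3.3) and Benjamini-Hochberg adjustment at 0.05, in code tested on simulated data. Figures used Python 3.11.15 and matplotlib 3.10.9. Named were the 10 genes, Gfi1, Atf4 and Myc, up to 4 genes of each pathway list with the smallest p in a comparison, and 3 genes of nearest profile for the 6 genes spanning over 1. Members and lists were chosen with earlier results of these data known. Alternatives were filters, summaries, a further quantile normalization, 1 fit of all arrays, a replicate block and leaving out each array.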

Additional observations from a re-analysis of the deposited data

Results flagged for a closer look

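Asns was singled out because its response to irradiation differed between genotypes by the test of that difference: -1.19 ± 0.18 (KO minus WT, limma, adjusted p = 0.00211), with 3 irradiated and 2 untreated arrays of each genotype. Asns lay above its untreated arrays in 3 of 3 irradiated arrays of both genotypes. It passed the filter on low genes only with those irradiated arrays, so its untreated values are near the low end.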

How the results depend on the processing

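Of 1400 values of the 10 genes under alternatives, 1332 kept their side of the threshold, 52 lost a call and 16 gained one. Of the called values 0 changed sign. The direction of values called under neither setting was not compared. Some of these changed sign, as between KO and WT Notch tumours without KO Notch 2. With all 20 arrays in 1 fit, the calls among the 10 were 0 (all genes 115) for KO against WT untreated, 0 (148) irradiated, 2 (548) for irradiation in WT, 2 (772) in KO, 0 (6) for their difference and 2 (679) for KO against WT ENU tumours. All genes gave 184 for KO against WT Notch tumours, 126 for the difference of the KO effects and 270 for Notch against ENU tumours in that fit. With only probe sets above the filter, the calls among the 10 were 1 for KO against WT untreated, 1 irradiated, 2 for irradiation in KO and 0 for the difference (159 over all genes). In that setting Asns and Trib3 were not tested in thymocytes. All genes then gave 1 for ENU and 4 for Notch tumours, KO against WT. The stricter filter, under which Asns was not tested in thymocytes, gave 1 for untreated KO against WT and 0 for the difference. No filter gave 1 for untreated KO against WT, and 1 over all genes for the difference of the KO effects, and a further quantile normalization 6 over all genes for Notch tumours, KO against WT. With 1 array left out, the calls among the 10 (all genes) ran from 0 to 1 (716 to 859) for KO against WT untreated, 1 to 3 (1432 to 1972) irradiated, 6 to 8 (2111 to 5128) for irradiation in WT, 3 to 5 (2678 to 4724) in KO, 1 to 2 (61 to 299) for the difference, 2 to 7 (726 to 3772) for WT ENU and 0 to 2 (85 to 2034) for WT Notch tumours against thymocytes. They were 0 to 0 in limma among tumours (all genes 0 to 25 for KO against WT ENU, 0 to 1066 Notch, 0 to 261 for the difference of the KO effects, 0 to 27 for Notch against ENU). Where 1 array was left of a group, it was assumed to vary like the others. Omission of KO Notch 2 was chosen after seeing the data. Apart from the sets of genes and arrays tested, the causes were not tested.

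Same-numbered arrays correlated in their deviations at -0.41 to 0.19, so the numbers were not read as pairs. The replicate block gave 3 calls among the 10 for WT ENU tumours against thymocytes, and over all genes 0 for KO against WT Notch tumours and 1 for Notch against ENU tumours.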
